A study of Mus musculus with 12 samples.

Results

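The transcription factor p53 and the genes it is best known to control were followed in the RNA of mouse undifferentiated spermatogonia from control and cryptorchid testes. The 10 genes were chosen by symbol and not by a limit on measured values, but with earlier results of these data known. They were *Trp53*, which encodes p53, and *Mdm2*, *Mdm4*, *Cdkn1a*, *Ccng1*, *Phlda3*, *Zmat3*, *Sesn2*, *Trp53inp1* and *Perp*. Each of the 10 had 1 row among the 21859 genes measured, and 9 of them were among the 16932 genes that passed the expression limit used for testing (log2 of the mean RPM above -1). *Perp* did not pass. RPM is the number of reads on a gene scaled to the total of its library, and all levels below are on the log2 RPM scale unless stated otherwise.

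The cells were GFRa1-EGFP+/KIT- spermatogonia, a sorted population that reports *Gfra1*, the gene of the GDNF receptor, through EGFP and lacks surface KIT, a receptor of differentiating germ cells. Cryptorchidism was induced by surgery in adult males of 8-10 weeks that carried GFRa1-EGFP: the left testis was fixed to the abdominal wall, the right testis stayed in the scrotum as the control, and both were collected on day 10. By this description all animals carried the EGFP allele and the controls also came from operated animals. The labels call the control samples WT. The control group has 5 libraries and the cryptorchid group 7. Control testes were digested at 32°C and cryptorchid testes at 37°C, so digestion temperature and condition cannot be told apart. The sources used here do not say which libraries share a mouse, nor whether each library came from a different animal, and *P*-values measure the spread between these libraries only.

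p53 is a stress-activated transcription factor whose protein is held low by MDM2, a ubiquitin ligase, with the help of the related protein MDM4. When DNA is damaged or other stress signals arrive, p53 protein is stabilized largely after translation, and it then raises the transcription of genes for cell cycle arrest, repair, metabolism and apoptosis. *Mdm2* is itself a p53 target, which closes a feedback loop. In the testis, p53 has been studied for its part in the death of germ cells after irradiation and heat. Because the protein is controlled after translation, the RNA of its target genes is commonly read as a measure of its activity, and the level of its own RNA is not.

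p53 binds DNA at a response element of 2 adjacent half-sites of 10 bases each, and this element was searched in promoter windows of 300 bases (250 bases before and 50 after each start in RefSeq, build GRCm38.p6). The element was read without a spacer, allowing 1 or more mismatches to the consensus, with the core C and G of each half-site kept fixed. It is its own reverse complement, so 1 search covers both strands. Windows were given for 7 of the 10 genes. *Zmat3*, *Trp53inp1* and *Perp* had none in the table. The 3 genes below are those whose window held an element with at most 3 mismatches, and they are shown because they place the p53 element beside the genes whose RNA is described next. Each stretch of 60 bases runs 5′ to 3′ on the strand of the gene, and the 20 bases in capitals are the best-matching element.
Cdkn1a, chr17:29090908-29090967 (+ strand): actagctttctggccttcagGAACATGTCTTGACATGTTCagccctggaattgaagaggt
Ccng1, chr11:40755442-40755501 (− strand): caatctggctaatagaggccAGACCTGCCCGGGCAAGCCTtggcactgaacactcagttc
Trp53, chr11:69580264-69580323 (+ strand): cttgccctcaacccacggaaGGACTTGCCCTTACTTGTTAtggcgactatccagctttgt

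The elements of *Cdkn1a* and *Ccng1* had 1 mismatch each, and that of *Trp53* had 3. Their first bases lay 51, 195 and 75 bases before the start, respectively, and for *Cdkn1a* this was the upstream of 2 annotated starts. Of all 32851 windows, 22 (0.067%) held an element with at most 1 mismatch and 453 (1.38%) one with at most 3. The *Mdm2* window held 1 exact half-site, as did 8.36% of all windows, and the windows of *Mdm4*, *Phlda3* and *Sesn2* held none. A match describes these letters only, and elements outside the windows were not searched.

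Levels of the 10 genes were first set side by side per kilobase of exon, since RPM grows with the length of a gene (exon lengths are those of GENCODE vM21, and the authors counted over another gene set). In control spermatogonia *Mdm2* had the highest median, 35.2 RPM per kilobase (range 30.7-47.4). The medians of *Sesn2* (19.8), *Trp53* (19.4), *Trp53inp1* (18.6) and *Mdm4* (15.3) followed, and the ranges of these 4 overlapped. The highest values of *Trp53* (39.7) and *Mdm4* (35.4) lay within the range of *Mdm2*. *Ccng1* had a median of 9.01 RPM per kilobase. *Phlda3*, *Cdkn1a* and *Zmat3* were lower, with medians of 1.14, 0.937 and 0.726 and ranges that overlapped one another. *Perp* was at 0. In cryptorchid spermatogonia *Mdm2* again had the highest median (37.2 RPM per kilobase) and *Perp* the lowest (0). Between them, *Mdm4* (26.2) and *Trp53inp1* (26.0) stood above *Trp53* (19.0), and *Sesn2* (8.14) stood below *Ccng1* (9.21), with overlapping ranges in each of these pairs of neighbors.

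No gene of the 10 was called as differentially expressed between cryptorchid and control spermatogonia at 2-fold and an unadjusted *P*-value of 0.05. Under this rule, 3.56% of all tested genes were called higher and 2.36% lower in the cryptorchid group. At an unadjusted *P*-value of 0.05 without the fold limit, 1 of the 9 tested genes passed, *Sesn2*, which was lower, against 9.48% of all genes. After Benjamini-Hochberg adjustment over all genes none of the 9 passed, and 0.0118% of all genes did (2 genes). These counts depended on the model: with limma's array weights, which give uneven libraries less weight, *Sesn2* passed (1 of the 9) beside 476 of all genes. By the exact two-sided rank sum test over the 5 against 7 libraries, 0 of the 9 had an unadjusted *P*-value under 0.05, against 9.63% of all genes. For none of the 10 were the 2 groups free of overlap, as they were for 0.839% of the genes tested. The median difference of the 9 genes was 0.14 on the log2 scale, beside a median of 0.10 over all tested genes, and 7 of the 9 means were higher in the cryptorchid group, as were 56.7% of all means.

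**Figure D1:**
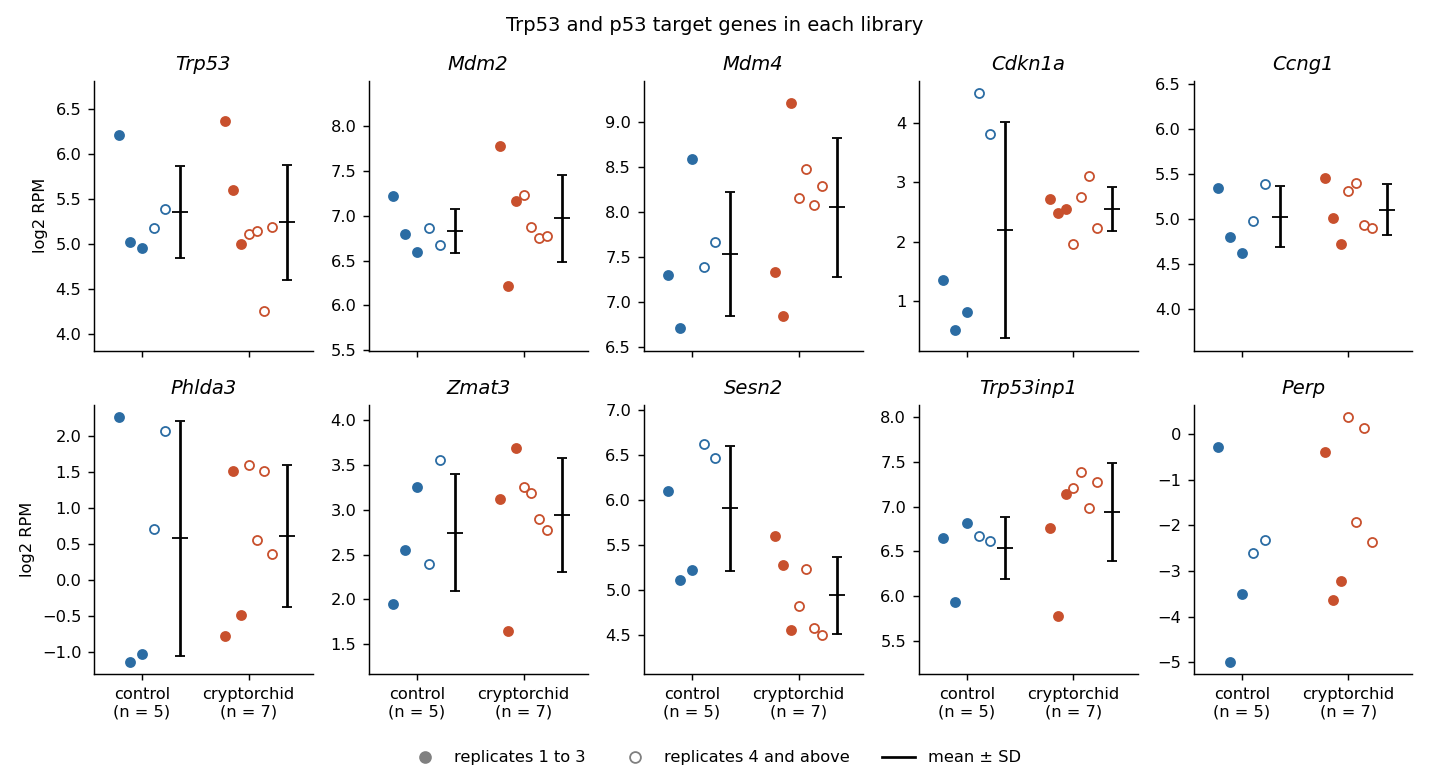
Level of each of the 10 genes (vertical axis, log2 RPM, with its own range in each panel) in the 5 control and 7 cryptorchid libraries, in the order of their replicate numbers. Filled points are replicates 1 to 3, open points are replicates 4 and above, and bars show the mean and SD of each group. In every panel the points of the 2 groups overlap. *Perp* has no bar, since 8 of its 12 libraries held no read and their points mark only the lowest value of each library.

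The libraries fell into a pair of sets that differed in depth, and differences are given within both. Replicates 1 to 3 of each group had 6800360 to 24345368 reads on genes, and replicates 4 and above had 3306771 to 5481947. The labels name no sequencing batch, so the sets are called by their replicate numbers. The first set holds 3 control and 3 cryptorchid libraries, the second 2 and 4. With so few libraries the groups of a gene can be free of overlap within a set without any real difference. The share of all genes free of overlap within a set was not counted, so such cases below are descriptions only. The 2 defining markers of undifferentiated spermatogonia were high in both groups: *Zbtb16*, a factor of undifferentiated spermatogonia, was at 8.33 ± 0.69 (SD, n=5) in control and 8.54 ± 0.57 (n=7) in cryptorchid libraries, and *Gfra1* at 7.88 ± 0.88 and 8.40 ± 0.70. Over the 11 markers of these cells, 5 means were higher and 6 lower in the cryptorchid group, with a median difference of -0.22. None of the 11 was called, beside 3.56% of all genes called higher and 2.36% lower, the shares that also stand beside the counts of the lists below. By limma 1 of them, with a lower mean, had an unadjusted *P*-value under 0.05, beside 9.48% of all genes. Of the genes that mark other cells, *Kit* was at 4.49 ± 0.63 and 4.94 ± 0.57, *Sycp3* (spermatocytes) at 6.45 ± 1.0 and 7.09 ± 0.73, and *Sox9* (Sertoli cells) at 0.92 ± 1.0 and 1.07 ± 0.94. Among 5 markers of differentiating spermatogonia, which include *Kit*, 2 means were higher and 3 lower in the cryptorchid group (median difference -0.31), and 1 was called higher. *Cyp11a1* (Leydig cells) had no read in 3 libraries of each group, and the stress gene *Fos* was at 5.13 ± 2.35 and 5.49 ± 2.08. *Fos* also differed between the sets, with control and cryptorchid means of 6.73 and 7.47 in the first and 2.75 and 4.01 in the second. In the second set both control values lay below all 4 cryptorchid values (3.53 to 5.02), and in the first the values overlapped. Sums of 9 immediate early genes were 375 to 1172 RPM in the first set and 113 to 176 RPM in the second. The part of this in other differences between the sets was not tested. Among 12 lists of markers, spermatids had the most called genes. All 7 of their markers had a lower mean in the cryptorchid group and 3 of them were called lower, beside 2.36% of all genes. *Prm1* among them was at 7.61 ± 1.14 in control and 5.20 ± 2.09 in cryptorchid libraries. None of the 7 was at 0 in any control library. Their summed level ran from 489.8 to 2666 RPM in control and from 14.5 to 1789 RPM in cryptorchid libraries, and was highest in control replicates 4 and 5 (2252 and 2666 RPM). Some other lists held a single called gene, which in lists this small says little, or had sums that differed between libraries. Peritubular myoid cells had 1 called higher among 3 tested markers, with low sums of 0.909 to 15.2 RPM in control and 0.476 to 12.1 RPM in cryptorchid libraries. Of 6 heat shock genes 1 was called higher, *Hsph1* (named after its value was seen), and their sum was 359 to 1389 RPM in control and 559 to 1733 RPM in cryptorchid libraries (624.8 and 707 against 1197 to 1555 RPM in the second set). The means of all 4 endothelial markers were higher in the cryptorchid group, with 1 called, and their sums were 8.73 to 22.9 and 10.6 to 37.5 RPM. Spermatocyte sums were 271 to 379 and 344 to 529 RPM, apart in the second set (344 and 349 against 428 to 529 RPM). The sum of 7 Sertoli cell markers was 217 and 194 RPM in control replicates 4 and 5, 43.6 to 67.2 RPM in the other controls and 36.8 to 231 RPM in the cryptorchid group, and *Amh* among them had no read in any control. In pooled cells, fewer cells of a type and less RNA per cell cannot be told apart.

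*Trp53* RNA was present at a similar mean level in both groups. It was at 6.21, 5.03, 4.96, 5.18 and 5.40 in control replicates 1 to 5, and in the cryptorchid libraries the lowest value was 4.26, the median 5.15 and the highest 6.37. The highest control and the highest cryptorchid value were both those of replicate 1, and the ranges overlapped nearly in full. The difference, cryptorchid minus control, was -0.11 (95% confidence interval -0.83 to 0.61, adjusted *P*=0.937 by limma). As a level, this interval spans 0.56-fold to 1.52-fold. The difference was 0.26 among replicates 1 to 3 and -0.36 among the others.

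The 3 tested genes whose levels followed *Trp53* most closely over the 12 libraries were *Hsd17b4*, a peroxisomal enzyme of fatty acid oxidation (Pearson's r=0.94, Spearman's rho=0.80), *Racgap1*, a regulator of cytokinesis (r=0.91, rho=0.85), and *Sema3c*, a secreted semaphorin (r=0.89, rho=0.80). They were picked as the highest values of r over all tested genes, so no *P*-value is given. Without the 2 libraries whose *Trp53* level was farthest from the median, r was 0.81, 0.74 and 0.91. Within replicates 1 to 3 it was 0.96, 0.95 and 0.90, and within the other 6 libraries 0.87, 0.93 and 0.91. None of the 9 other genes of the list was among these 3. *Sema3c* had only 1 read in its lowest library.

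*Mdm2* and *Mdm4*, which encode the inhibitors of p53, were both well expressed, with at least 399 reads in every library. *Mdm2* was at 7.22, 6.79, 6.59, 6.86 and 6.68 in the control replicates, and at 6.21 (lowest), 6.87 (median) and 7.78 (highest) in the cryptorchid group, whose range enclosed that of the controls. The difference was 0.14 (-0.42 to 0.70, adjusted *P*=0.899), with 0.18 and 0.14 in the 2 sets of libraries. Of the tested genes of the list, *Mdm2* thus had an interval that stayed within 2-fold in both directions, as did *Trp53*, *Ccng1* and *Trp53inp1*.

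*Mdm4* was at 7.29, 6.70, 8.59, 7.38 and 7.66 in control libraries, and at 6.84, 8.15 and 9.21 (lowest, median and highest) in cryptorchid libraries. Replicate 3 had the highest value in each group. Its difference of 0.52 (-0.28 to 1.33) was the largest positive value among the 9, but it did not pass the test (adjusted *P*=0.700). In the second set of libraries all 4 cryptorchid values (8.07-8.47) lay above both control values (7.38 and 7.66), a difference of 0.72, and in the first set the difference was 0.26 with overlapping values. Without control replicate 3 the difference was 0.79, with an unadjusted *P* of 0.046.

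*Cdkn1a* encodes p21, the cyclin-dependent kinase inhibitor through which p53 halts the cell cycle, and it is the gene most often used to read p53 activity. Its level was 1.35, 0.51, 0.82, 4.50 and 3.80 in control replicates 1 to 5. In cryptorchid replicates 1 to 7 it was 2.72, 2.47, 2.54, 1.96, 2.75, 3.10 and 2.24. The cryptorchid libraries formed a narrow band (SD 0.37, n=7) that fell in the gap between a low trio and a high pair of control libraries (SD 1.83, n=5). These values rest on 18 to 124 reads in the controls and 18 to 147 in the cryptorchid group.

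Over all libraries the difference of *Cdkn1a* was 0.35 (-1.10 to 1.79, adjusted *P*=0.905), which neither shows a change nor sets a narrow limit on one. The log2 ratio of mean RPM had the opposite sign (-0.50). In replicates 1 to 3 every cryptorchid library was above every control library, by 1.69 on average, and in replicates 4 and above every cryptorchid library was below both controls, by 1.64. The second difference minus the first was -3.32 (-5.43 to -1.22, unadjusted *P*=0.00407 for the interaction in limma, adjusted *P*=0.9996), and 1.59% of all genes had an interaction with an unadjusted *P*-value under 0.05. Both control libraries with high *Cdkn1a*, replicates 4 and 5, were the ones with the highest spermatid marker sums. They also had the highest Sertoli marker sums among controls. In the cryptorchid group, replicate 6 had the highest spermatid sum (1789 RPM) and the highest *Cdkn1a* level (3.10). Replicate 7 of that group had its highest Sertoli sum (231 RPM) and a *Cdkn1a* level of 2.24. The part of spermatid or Sertoli cell RNA in the result was not tested. Without those 2 control libraries the difference was 1.65 and was called (unadjusted *P*=0.023).

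**Figure D2:**
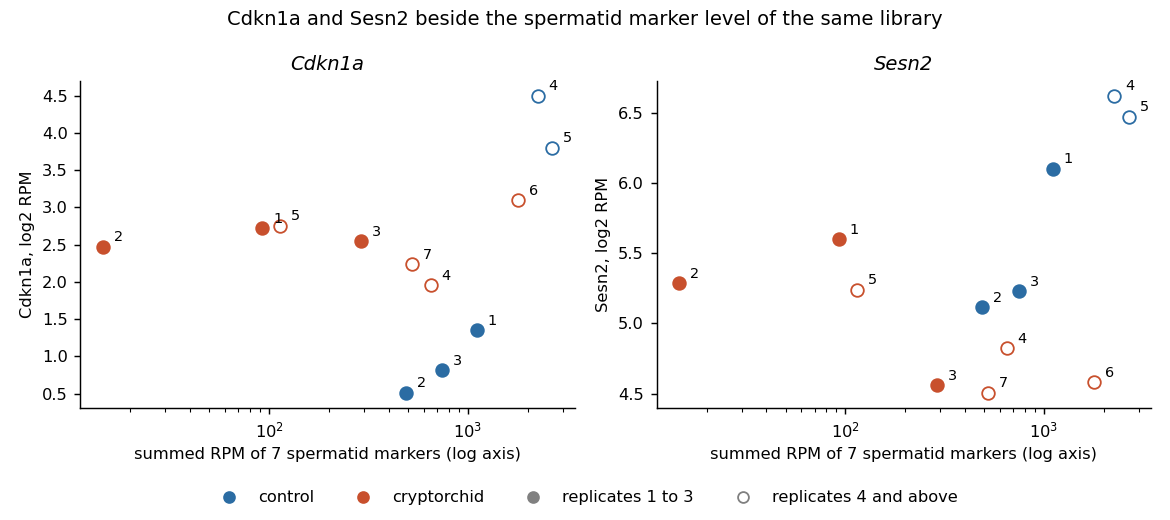
*Cdkn1a* (left) and *Sesn2* (right) in log2 RPM against the summed RPM of 7 spermatid markers in the same library (log axis), with the replicate number beside each point. Blue points are control and orange points cryptorchid libraries, filled for replicates 1 to 3 and open for 4 and above. Control replicates 4 and 5 are the highest on both axes in both panels, and cryptorchid replicate 6, at 1789 RPM, has the third highest *Cdkn1a* level and a *Sesn2* level of 4.58.

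*Sesn2* encodes sestrin 2, a stress-induced protein that restrains mTORC1 and supports antioxidant defense, and which is also induced by ATF4 in the integrated stress response. It was at 6.10, 5.12, 5.23, 6.62 and 6.47 in control replicates 1 to 5. In cryptorchid replicates 1 to 7 it was 5.60, 5.28, 4.56, 4.82, 5.24, 4.58 and 4.50. Of the 5 control libraries, replicates 1, 4 and 5 were above every cryptorchid library, and replicates 2 and 3 lay within the cryptorchid range.

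The mean of *Sesn2* was 5.91 ± 0.70 (SD, n=5) in control and 4.94 ± 0.43 (n=7) in cryptorchid spermatogonia. The difference of -0.97 (-1.66 to -0.28) is a level of 0.51-fold (0.32 to 0.83), just short of the 2-fold limit. The unadjusted *P* was 0.00884 by limma, and the adjusted *P* was 0.362. The exact rank sum test gave *P*=0.073 (adjusted *P*=0.536), where the smallest value that 5 against 7 libraries allow is 0.00253, and *P*=0.213 when libraries were exchanged only within the 2 sets. The difference was negative in each set, but its size was not the same: -0.34 in replicates 1 to 3, with overlapping values, and -1.76 in the others, where all 4 cryptorchid values (4.50-5.24) lay below both controls (6.47 and 6.62). The interaction was -1.42 (-2.65 to -0.19, unadjusted *P*=0.026, adjusted *P*=0.9996).

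Whether *Sesn2* passed the 2-fold limit depended on single libraries. It passed without control replicate 2 (-1.17) or 3 (-1.14), or without cryptorchid replicate 1 (-1.08), 2 (-1.02) or 5 (-1.02), and did not pass without any of the other 7. It also passed after median centring (-1.03) or quantile normalization (-1.04). Control replicates 4 and 5, the highest for *Sesn2*, had the highest spermatid marker sums, and the third control with a high value, replicate 1, had the next highest sum among controls (1109.6 RPM). Sertoli marker sums were also higher in replicates 4 and 5 than in the other controls. The cryptorchid group did not show this order. Its replicates 1, 2 and 5 had the lowest spermatid sums (92.4, 14.5 and 114 RPM) and the highest *Sesn2* levels of the group. Cryptorchid replicate 7 had the highest Sertoli sum of all libraries (231 RPM) and the lowest *Sesn2* level (4.50). Without control replicates 4 and 5 together the difference was -0.54 (unadjusted *P*=0.169). The part of spermatid or Sertoli cell RNA in the result was not tested.

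*Trp53inp1* encodes a stress protein that promotes p53 phosphorylation and autophagy. It was at 6.65, 5.94, 6.82, 6.67 and 6.62 in control libraries, and at 5.78 (lowest), 7.13 (median) and 7.39 (highest) in cryptorchid libraries. Replicate 2 was the lowest of each group and stood apart from the rest. Of the other 6 cryptorchid libraries, 5 were above all controls. The difference was 0.40 (-0.21 to 0.997, adjusted *P*=0.696, exact rank sum *P*=0.073). It was 0.09 in replicates 1 to 3 and 0.57 in the others, where all 4 cryptorchid values (6.99-7.39) were above both control values. Without cryptorchid replicate 2 it was 0.59, with an unadjusted *P* of 0.024.

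*Ccng1*, *Zmat3* and *Phlda3* had nearly equal means in the 2 groups. *Ccng1*, which encodes cyclin G1, a partner of the phosphatase PP2A in the control of MDM2, was the steadiest of the 3, at 5.03 ± 0.34 (SD, n=5) in control and 5.11 ± 0.28 (n=7) in cryptorchid libraries. The difference was 0.08 (-0.49 to 0.64), and the window of this gene held a p53 element with 1 mismatch. *Zmat3*, an RNA-binding zinc finger protein, was at 2.74 ± 0.65 and 2.94 ± 0.64, a difference of 0.20 (-0.84 to 1.23). *Phlda3*, which inhibits AKT signaling, was low and scattered, at 0.57 ± 1.63 and 0.61 ± 0.98, with 5 to 117 reads in the controls and 5 to 32 in the cryptorchid group. Its difference was 0.04 (-1.70 to 1.77), and the sign was negative after median centring and after quantile normalization. Adjusted *P*-values of the 3 were 0.947, 0.925 and 0.992.

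*Perp*, a p53 target that encodes a membrane protein of cell junctions, was barely detected. It had 20 reads in control replicate 1 and 17, 6 and 5 reads in cryptorchid replicates 1, 4 and 6. The other 4 control and 4 cryptorchid libraries had none. A count of 0 allows a level of up to 3 reads, which is -3.26 to -0.59 log2 RPM over the control libraries and -2.89 to -0.19 over the cryptorchid libraries. At this depth no difference was detectable for *Perp*.

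**Figure D3:**
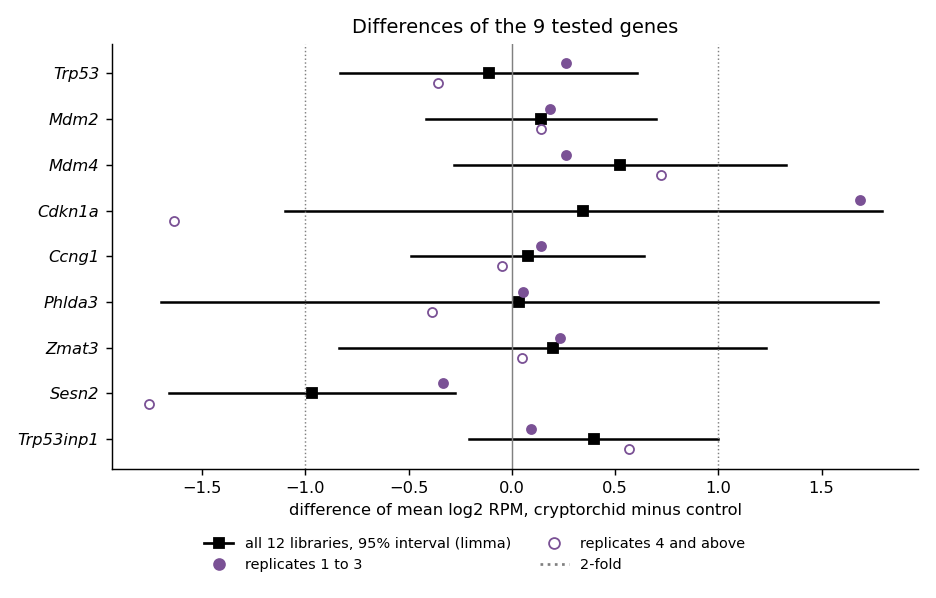
Difference of mean log2 RPM, cryptorchid minus control (horizontal axis), of the 9 tested genes. Black squares and bars give the value over all 12 libraries with its 95% interval in limma, filled circles give the difference within replicates 1 to 3, open circles that within replicates 4 and above, and dotted lines mark 2-fold. Only the interval of *Sesn2* leaves out 0, and the circles of *Cdkn1a* lie on opposite sides of 0 (1.69 and -1.64).

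The relation between the levels of these genes differed in sign and strength from pair to pair. Over the 36 pairs of tested genes, Pearson's r over the 12 libraries had a median of 0.12 and was above 0 in 23 pairs. The highest was that of *Mdm4* with *Trp53inp1* (r=0.82, Spearman's rho=0.81). It was 0.82 without the 2 libraries farthest from the median of *Mdm4*, 0.84 in replicates 1 to 3 and 0.95 in the other 6. The lowest was that of *Mdm4* with *Sesn2* (r=-0.49, rho=-0.50), at -0.53 without the 2 farthest libraries and -0.55 and -0.83 in the 2 sets. These are descriptions of 12 libraries that also share group and depth.

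The rest of the p53 pathway was described by 58 further genes in 5 lists, of which 57 were in the table and 55 were tested. Of the 55, 1 was called higher and 1 lower, beside 3.56% and 2.36% of all genes, and none passed after adjustment. An unadjusted *P*-value under 0.05 was seen for 4 of the 55, beside 9.48% of all genes. Their median difference was 0.18, beside 0.10 over all genes, with 32 of the 55 means higher in the cryptorchid group.

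Among the p53 family, *Trp73*, whose product p73 shares the DNA-binding domain of p53, was called higher. *Trp73* had 7, 10, 2, 6 and 0 reads in control libraries and 87, 6, 30, 6, 2, 15 and 2 in cryptorchid libraries, so most values rest on few reads, and the library with none was entered at the lowest value of that library. Its mean was -1.58 ± 1.01 (SD, n=5) in control and 0.43 ± 1.41 (n=7) in cryptorchid libraries. The difference of 2.0 (0.17 to 3.84) had an unadjusted *P* of 0.034 by limma and an adjusted *P* of 0.481. It lost the call without control replicate 1, 3 or 5 or cryptorchid replicate 1, 3 or 6, with values of 1.75 to 1.95 and unadjusted *P*-values of 0.056 to 0.074. *Trp63*, which encodes the p63 protein known to guard oocytes, differed by 0.32 (-1.75 to 2.39).

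The 10 apoptosis targets, which include death receptors and BCL2 family members, had no called gene. Of all tested genes 3.56% were called higher and 2.36% lower, so a list of this size can hold none without standing out. Their median difference was -0.18, with 4 means higher and 6 lower. *Bax*, the effector of mitochondrial permeabilization, was at 6.62 ± 0.72 (SD, n=5) and 6.35 ± 0.61 (n=7). *Bbc3* and *Pmaip1*, which encode PUMA and NOXA, differed by 0.18 and -0.31, and *Bbc3* had 0 to 51 reads with none in 4 libraries. *Fas*, a death receptor, had the largest difference of the list, 2.07, and did not pass (unadjusted *P*=0.066). It had 0 to 54 reads in the controls, of which 2 had none, and 1 to 141 in the cryptorchid group. It was at -1.53 ± 2.05 (n=5) and 0.54 ± 1.73 (n=7).

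Of the 12 targets that act in arrest and feedback, 10 were tested and none was called, beside 3.56% of all genes called higher and 2.36% lower. The median difference was 0.02. *Gadd45a*, a damage-induced regulator of arrest and repair, differed by 0.08, and *Btg2*, an antiproliferative gene, by -0.03. *Rchy1*, another ubiquitin ligase for p53, was the 1 gene of the list with an unadjusted *P*-value under 0.05 by limma, beside 9.48% of all genes. It was at 6.31 ± 0.37 (SD, n=5) in control and 6.85 ± 0.30 (n=7) in cryptorchid libraries, a difference of 0.53 with an adjusted *P* of 0.507 by limma. The exact rank sum test within the 2 sets gave *P*=0.00667 for *Rchy1* (adjusted *P*=0.276).

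Among the 15 tested targets that act in repair and metabolism, *Ak1*, which encodes adenylate kinase 1, an enzyme that balances adenine nucleotides, was called lower. *Ak1* was at 5.51, 4.20, 4.31, 6.94 and 6.34 in control replicates 1 to 5 and at -1.48 (lowest), 3.12 (median) and 5.63 (highest) in cryptorchid libraries. The difference was -2.19 (unadjusted *P*=0.033, adjusted *P*=0.479), and the exact rank sum test gave *P*=0.106. In each set of libraries every cryptorchid value was below every control value, with differences of -3.23 and -2.0, and the exact test within the sets gave *P*=0.00667, the smallest it can give (adjusted *P*=0.276). With a term for the set the difference was -2.65 (unadjusted *P*=0.00146 by limma). It lost the call without control replicate 1, 4 or 5 or cryptorchid replicate 1 or 5, with values of -2.18 to -1.82 and unadjusted *P*-values of 0.054 to 0.091. Control replicates 4 and 5, with the highest spermatid marker sums, were the 2 highest for *Ak1*, and cryptorchid replicate 2, with the lowest sum, was the lowest, with 4 reads. The part of spermatid RNA in this difference was not tested. *Sesn1*, the sestrin related to *Sesn2*, had a difference of the opposite sign, 0.67 (unadjusted *P*=0.041, adjusted *P*=0.502), from 6.22 ± 0.55 (n=5) to 6.89 ± 0.51 (n=7).

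The 18 upstream regulators, among them the damage kinases and the acetyltransferases that modify p53, had no called gene and no unadjusted *P*-value under 0.05. Of all tested genes 3.56% were called higher and 2.36% lower, and 9.48% had an unadjusted *P*-value under 0.05 by limma. Differences ran from -0.58 to 0.63, with a median of 0.26 and 11 of 18 means higher. *Atm* and *Atr*, which signal DNA breaks and stalled forks, differed by 0.29 and 0.39. The checkpoint kinases *Chek1* and *Chek2* differed by 0.63 and 0.34. *Cdkn2a*, whose alternative product ARF inhibits MDM2, differed by -0.37, with 3.19 ± 2.32 (SD, n=5) in control and 2.83 ± 1.43 (n=7) in cryptorchid libraries.

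**Figure D4:**
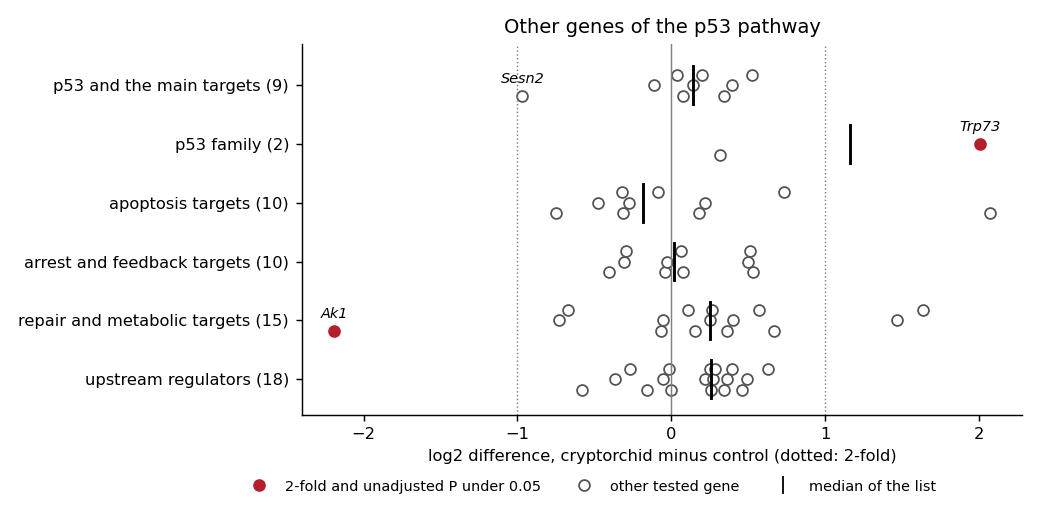
Difference of mean log2 RPM, cryptorchid minus control (horizontal axis), of each tested gene in the p53 gene list and in 5 further lists of the pathway, with the number of genes in brackets. Red points were called at 2-fold and an unadjusted *P*-value of 0.05, vertical bars mark list medians, and dotted lines mark 2-fold. *Trp73* (2.0) and *Ak1* (-2.19) are the 2 called genes, and *Sesn2* (-0.97) lies beside the 2-fold line.

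Genes with a p53 element in their promoter window were counted in the same way, whether or not they are known targets. Of 11 genes with an element of at most 1 mismatch, 8 were tested and none was called, where 3.44% of the tested genes with a window were called higher and 2.36% lower. The median difference of the 8 was 0.09. They include *Cdkn1a* and *Ccng1* of the 10 genes and *Gtse1* and *Rps27l* of the pathway lists, so they are not a separate set of genes. *Mthfd1*, an enzyme of folate metabolism, was the 1 of the 8 with an unadjusted *P*-value under 0.05 (0.67, adjusted *P*=0.479), against 9.53% of the genes with a window, and is named after its value was seen. With up to 3 mismatches, 234 genes were tested, 5 (2.14%) were called higher and 7 (2.99%) lower, and the median was 0.11, beside 0.09 over the 13114 tested genes that have a window.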

How the data were processed

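RNA of GFRa1-EGFP+/KIT- spermatogonia was measured in 12 libraries, 5 control and 7 cryptorchid, made by Smart-seq2 from about 200 cells' worth of RNA each and by Nextera XT. Smart-seq2 amplifies full-length cDNA and carries no molecular identifiers, so read numbers and floors cover counting error only. To make the deposited log2 RPM values, the authors trimmed reads with Trim Galore 0.6.6 (the submitters' processing notes also name FastQC 0.11.8), mapped them to mm10 with HISAT2 2.1.0 and counted them over protein-coding genes of a UCSC gene set in SeqMonk. The strand setting of the counting is not given in the sources used here, and *Cdkn1a* shares 273 exon bases with a gene model on the other strand. Libraries were grouped by the sample titles and read by column name, and 0 columns were left unused.

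The lowest value of each library was taken as 0.9 reads, which turned 100% of the values checked into whole numbers of reads within 0.02. Values without reads and values with very many reads were left out of this check. Reads on genes were 4511730 to 24345368 (median 7603202) in control and 3306771 to 20027902 (median 4611830) in the cryptorchid group. Within a group, 2 libraries were apart by 12.8 to 253 times what sampling of reads would give, so none was counted as a repeat of another.

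Differences were tested with limma 3.58.1 (trend) in R 4.3.3 on the log2 values of the 16932 genes above the expression limit (-1 for log2 of the mean RPM), without pairing. A call needed a 2-fold difference and *P* under 0.05 (two-sided, before adjustment), the limits of the study's methods, with Benjamini-Hochberg adjustment over all tested genes beside it. Intervals are 95% confidence intervals. Exact two-sided Wilcoxon rank sum tests were enumerated in Python 3.11.15 (numpy 2.4.6, pandas 2.3.3, scipy 1.17.1), and plots were drawn with matplotlib 3.10.9. The study's own edgeR calls were not repeated. The fitting steps were tested on simulated data. Promoter windows are those of RefSeq on GRCm38.p6, and gene models those of GENCODE vM21, the same build as mm10.

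The 10 genes, the 5 pathway lists, the marker lists and the tests were chosen with earlier results of these data known. Named genes are the 10 genes, called genes of the pathway lists, the defining markers and the 3 genes most like *Trp53*. Other pathway genes were named after their values were seen, as examples. The alternatives were other scalings, pseudocounts (1 and 0.1 RPM), filters (none, or above 2), array weights, voom on recovered reads, a term for the 2 sets of libraries, each set alone, the replicate block, the rank sum test, the ratio of mean RPM, 1 common floor and each library left out. Leaving out both controls of replicates 4 and above, and the interaction of set and condition, were added after seeing the data.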

Additional observations from a re-analysis of the deposited data

Results flagged for a closer look

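*Trp53inp1* stood apart in replicate 2 of both groups, at 5.94 in control (the other 4 controls were at 6.62 to 6.82) and at 5.78 in the cryptorchid group (the other 6 were at 6.77 to 7.39). Each was farther from its neighbor than Dixon's 95% limit allows for its group size. In all, 20 groups of values were examined in this way and 2 were past the limit, where chance gives about 1 in 20.

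For 2 of the 9 tested genes the interaction of set and condition in limma had an unadjusted *P*-value under 0.05, against 1.59% of all genes. This interaction was added after seeing the data. For *Cdkn1a* the difference among replicates 4 and above minus that among replicates 1 to 3 was -3.32, and for *Sesn2* it was -1.42. Neither passed adjustment over all genes (adjusted *P*=0.9996 for both in limma).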

How the results depend on the processing

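Depth limits genes with few reads, such as *Perp*, *Phlda3*, *Trp73*, *Fas* and *Bbc3*, and the second set of libraries more than the first. *Sesn2* was negative under every alternative (-1.76 to -0.34). Its unadjusted *P*-value was above 0.05 in replicates 1 to 3 alone, by the rank sum test and without both second-set controls. The call of *Sesn2* at 2-fold appeared (1 gene lower) after median centring, quantile normalization, with array weights and with a term for the set of libraries, and in 5 of the 12 fits without one library (0 to 1 gene lower). Without both second-set controls 1 gene of the 10, *Cdkn1a*, was called higher. *Mdm2*, *Mdm4* and *Trp53inp1* were positive under every alternative.

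The sign of other differences turned under some alternatives, none of them past an adjusted *P* of 0.05, and the cause was not tested. *Trp53* was 0.26 in replicates 1 to 3 alone and ran from -0.30 to 0.10 without one library. *Cdkn1a* was -0.74 with array weights and -1.64 in replicates 4 and above alone, and ran from -0.0757 to 0.92 without one library. *Ccng1* was -0.0489 in replicates 4 and above alone and ran from -0.0259 to 0.17 without one library, and *Zmat3* ran from -0.00146 to 0.41. *Phlda3* was -0.0308 after median centring, -0.36 after quantile normalization, -0.0804 with log2(RPM + 1), -0.17 with array weights, -0.0729 with voom on recovered reads, -0.15 with a term for the set and -0.39 in replicates 4 and above alone, and ran from -0.39 to 0.46 without one library.

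In the pathway lists 0 genes were called higher with log2(RPM + 1), with the filter at 2 or with array weights, 4 with voom, 3 without both second-set controls and 2 by the rank sum test. Lower calls there were 2 with array weights and 0 without both second-set controls or by the rank sum test. Without one library, 0 to 2 pathway genes were called higher and 0 to 1 lower. Over all genes, 603 were called higher and 399 lower. The filter at 2 gave 385 higher, array weights 703 lower, a term for the set 635 lower, voom 774 higher and 537 lower, and leaving out both second-set controls 1020 higher and 192 lower. After adjustment 2 genes passed, against 476 with array weights (*Sesn2* among them), 46 with a term for the set and 949 with the replicate block. *Ak1* was negative under every alternative (-3.23 to -1.40). The share of calls that were higher was 60.2%, and 45.7% after quantile normalization.

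The replicate numbers were not taken to pair the libraries. The correlation of deviations from the group means was 0.347, 0.363, 0.411 and 0.250 for the same-numbered libraries 1 to 4 but 0.0488 for number 5, and control replicate 5 correlated best with cryptorchid replicate 7 (0.274). With the replicate block, *Trp53* was 0.0928 and *Phlda3* -0.0944, *Mdm4* was 0.47 with an unadjusted *P* of 0.008 in limma, 2 pathway genes were called higher, and 778 genes were called higher and 900 lower over all genes, with no call among the 10.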
